A study of Mus musculus with 4 samples.

Results

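The expression of 10 genes of adenosine and purinergic signalling was followed in cells isolated as tumor-associated macrophages (TAMs) from NB9464 tumors. These 10 genes, of 54532 in the deposited count table, were chosen by name and matched by their Ensembl gene: the ectonucleotidases *Entpd1* and *Nt5e*, the adenosine deaminase *Ada*, the adenosine receptors *Adora2a* and *Adora2b*, the ATP-gated channels *P2rx4* and *P2rx7*, and the nucleotide receptors *P2ry6*, *P2ry12* and *P2ry14*. NB9464 is a murine neuroblastoma line with amplified MYCN. It was implanted subcutaneously in mice of the C57BL/6 background a few weeks of age, no treatment was given, and tumors were taken on day 40. In Syk MC-KO mice floxed *Syk*, the spleen tyrosine kinase gene, is deleted by LysM-Cre, a recombinase driven by the lysozyme M promoter in myeloid cells and not in macrophages alone, and Syk MC-WT mice were their wild type controls. Cells positive for CD11b and F4/80 were pulled out on magnetic beads, and polyA-enriched RNA was sequenced in 4 libraries, of which M7 and M8 carry the Syk MC-WT label (WT-labelled) and M9 and M10 the Syk MC-KO label (KO-labelled). Whether a library came from 1 tumor or from pooled tumors is not given in the sources used here, and the protocol also names bone marrow derived macrophages in the RNA step. The series title names an adoptive transfer experiment, in which the study mixed TAMs with tumor cells before injection, while the design and sample labels describe implanted NB9464 cells alone, and which of these the libraries come from cannot be told apart from the labels. With 2 libraries per genotype, the model p-values below borrow their measure of spread across all genes tested, and they cover these libraries only.

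Cells that are stressed or dying release ATP and other nucleotides, which act on P2X channels and on P2Y receptors coupled to G proteins. CD39, the product of *Entpd1*, removes phosphates from ATP and ADP to give AMP, and CD73, the product of *Nt5e*, turns AMP into adenosine. Adenosine dampens immune cells through the receptors encoded by *Adora2a* and *Adora2b* and is removed by adenosine deaminase or carried into cells, so that in tumors this pathway is known for restraining T cells and macrophages.

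Of the 10 genes, 8 were higher in the KO-labelled libraries, *Ada* was lower, and *Nt5e* did not pass the threshold of an adjusted p of 0.05 (edgeR's quasi-likelihood test on TMM-normalized counts, Benjamini-Hochberg adjustment over 16451 genes). Among all genes tested 22.7% were higher and 16.7% lower. The normalized counts (CPM, counts scaled to library size by TMM) of M9 and M10 lay above that of M7 and M8 for 9 genes and below both for *Ada*, where 38.0% and 37.2% of all genes tested did so. The median log2 fold change was 2.03 over the 10 genes and 0.02 over all genes tested. These directions depend on the scaling between libraries: 6 genes were higher and 1 lower with library size only, 0 higher and 3 lower when the libraries were scaled to 10 macrophage markers, and 0 higher and 7 lower when they were scaled to 6 pan-leukocyte genes. The median of all genes tested moved with them, to -0.52, -2.69 and -3.21 on the log2 scale, and the split of all genes called was 1678 higher and 5407 lower, 147 and 14220 (0.894% and 86.4%), and 91 and 14922. Under the macrophage marker scaling the median of the 10 genes was -0.75.

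Total counts were between 20755886 and 23518045, and 3 counts, taken as the smallest detectable signal, equalled 0.109 to 0.163 CPM, a floor that covers counting error only. *Syk* itself had 765 and 569 counts in the WT-labelled libraries and 4033 and 2944 in the KO-labelled ones, a log2 fold change of 2.80 (edgeR adjusted p = 0.000674), against the direction that the genotype labels give. The log2 fold change of *Syk* was 0.09 under the macrophage marker scaling (edgeR adjusted p = 0.870) and -0.44 under the pan-leukocyte scaling. Because of this *Syk* result, every direction in this text refers to the label of a library and not to a checked genotype. *Lyz2*, the lysozyme M gene, had 8109 and 5115 counts in M7 and M8 and 178 and 371 in M9 and M10. Its log2 fold change was -4.13, and -6.68 under the macrophage marker scaling. The promoter of this gene drives LysM-Cre. Its fall is not read as going against the labels, and an effect of the Cre on *Lyz2* was not tested. All 10 macrophage markers were higher (log2 fold changes of 0.57 to 3.57, median 2.82), and their summed level was 783 to 1130 CPM in the WT-labelled libraries and 5597 to 8834 CPM in the KO-labelled ones. The 6 pan-leukocyte genes (median 3.51) and the 5 neutrophil markers (median 3.12) were all higher, as were 4 of 5 T cell markers, 3 of 5 dendritic cell markers and 1 of 3 B cell markers tested, with medians of 2.98, 3.39 and 1.16. Lower were 4 of 8 fibroblast markers (median -1.06) and 2 of 8 endothelial markers (median -0.56). Beside these counts, 22.7% of all genes tested were higher and 16.7% lower. The summed fibroblast markers, at 12419 to 14308 CPM, exceeded the summed macrophage markers in both WT-labelled libraries, and were at 4080 to 4964 CPM in the KO-labelled ones. In M7 and M8 *Col1a1* was at 5656 and 6634 CPM and *Col3a1* at 6152 and 7110 CPM. No other fibroblast marker exceeded 248 CPM there, so this order of the sums rests on these 2 genes. Of 6 neuroblastoma markers, *Th* and *Dbh* were at 0 in every library, and of the 2 tested (median 1.26) 0 passed. Mitochondrial genes took 2.20% to 2.34% of the counts with the Syk MC-WT label and 6.00% and 15.9% in M9 and M10. The part of these differences in the results below was not tested. In such bulk libraries, fewer cells of a type and less RNA per cell cannot be told apart.

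**Figure D1:**
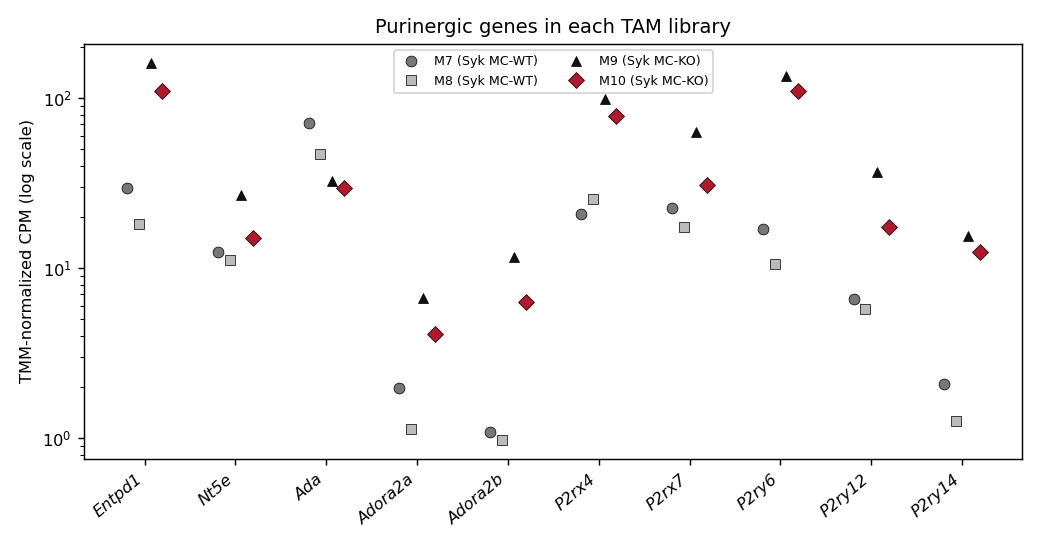
Level of each of the 10 genes in each of the 4 libraries, in TMM-normalized CPM on a log scale, with 1 point per library. M9 and M10 lie above M7 and M8 for 9 genes and below them for Ada, and M9 lies above M10 for all 10.

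The ectonucleotidases act one after the other on extracellular nucleotides, and only *Entpd1* of them passed the test. *Entpd1* (ENSMUSG00000048120, chr19:40612366-40741602 of GRCm38), which encodes CD39, had 808 and 449 counts in M7 and M8 and 3320 and 2020 counts in M9 and M10. As CPM these were 29.4, 18.3, 161 and 110.0, so the genotypes did not overlap and M9 was the highest. Its mean rose from 23.8 ± 7.90 to 135 ± 36.1 CPM (SD, n = 2), a 5.68-fold difference (log2 fold change 2.51, standard error 0.298, edgeR adjusted p = 0.00213), whereas under the macrophage marker scaling the log2 fold change was -0.20 (edgeR adjusted p = 0.705). *Nt5e* (ENSMUSG00000032420, chr9:88327197-88372092), which encodes CD73, had 343, 274, 552 and 278 counts in M7 to M10, or 12.5, 11.1, 26.8 and 15.1 CPM. M10 lay closer to the WT-labelled libraries than to M9. Its log2 fold change of 0.83 (95% interval 0.09 to 1.56, unadjusted p = 0.0333 from the same edgeR fit) did not pass after adjustment (edgeR adjusted p = 0.0739). Without M10 the log2 fold change of *Nt5e* was 1.19. Under the macrophage marker scaling it was -1.95 (edgeR adjusted p = 0.000613), where the median of all genes tested was -2.69 and 86.4% were lower.

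Because both genes are counted in the same library, their ratio does not depend on the scaling between libraries. The mix of cells in a library can still change such a ratio, and that part was not tested. For each *Entpd1* count there were 0.425 and 0.610 *Nt5e* counts in M7 and M8, and 0.166 and 0.138 in M9 and M10. The ratio was thus lower in both KO-labelled libraries, with a log2 difference of -1.75 that was between -2.01 and -1.49 with each library left out. The two-sided p of an exact permutation test over the 6 regroupings was 0.333, the smallest p that this design allows.

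*Ada* (ENSMUSG00000017697, chr2:163726584-163750239) encodes the enzyme that converts adenosine to inosine, and it was the 1 gene of the 10 that was lower. It had 1954 and 1146 counts in M7 and M8 and 675 and 541 in M9 and M10, or 71.2, 46.6, 32.7 and 29.4 CPM. The genotypes did not overlap, and M7 stood above the other libraries. Its mean fell from 58.9 ± 17.4 to 31.1 ± 2.33 CPM (SD, n = 2), 0.528 of the level with the Syk MC-WT label (log2 fold change -0.92, standard error 0.232, edgeR adjusted p = 0.0230). The direction held under every scaling tried. Under the macrophage marker scaling its log2 fold change was -3.59, where the median of all genes tested was -2.69 and 86.4% were lower. The call was lost without M7 (-0.58).

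RefSeq promoter windows are shown for 5 genes: the enzymes that make and remove adenosine (*Entpd1*, *Nt5e* and *Ada*), and *Adora2b* and *P2ry14*, the receptor genes with the highest log2 fold changes among those with a window. Each window runs from 250 bases before to 50 bases after a transcription start, on GRCm38.p6, and is given 5′ to 3′ on the strand of the gene. Capitals mark GAGGAA or its reverse complement TTCCTC, letters bound by PU.1, the ETS factor of myeloid cells. The windows printed hold neither ACGTG nor CACGT, the core bound by hypoxia-inducible factors. *Entpd1* has 2 windows, at chr19:40612116-40612415 and chr19:40659520-40659819 (plus strand), and both are printed. *P2ry14* has 4, of which the one at chr3:59130713-59131012 (minus) is printed. *Adora2b* is read at chr11:62248734-62249033 (plus), *Nt5e* at chr9:88327359-88327658 (plus) and *Ada* at chr2:163750190-163750489 (minus).
Entpd1, first window: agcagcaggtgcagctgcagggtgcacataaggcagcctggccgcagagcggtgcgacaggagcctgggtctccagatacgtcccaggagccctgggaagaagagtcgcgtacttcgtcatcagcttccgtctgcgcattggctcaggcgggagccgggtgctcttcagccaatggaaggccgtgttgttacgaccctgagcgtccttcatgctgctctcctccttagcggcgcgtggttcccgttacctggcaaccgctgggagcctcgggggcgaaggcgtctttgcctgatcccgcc
Entpd1, second window: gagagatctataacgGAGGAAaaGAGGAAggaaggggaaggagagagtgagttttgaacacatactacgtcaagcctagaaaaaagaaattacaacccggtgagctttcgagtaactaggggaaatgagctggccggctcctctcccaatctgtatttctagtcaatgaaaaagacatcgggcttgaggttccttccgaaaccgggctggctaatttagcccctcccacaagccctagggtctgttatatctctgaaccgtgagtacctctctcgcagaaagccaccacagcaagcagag
P2ry14: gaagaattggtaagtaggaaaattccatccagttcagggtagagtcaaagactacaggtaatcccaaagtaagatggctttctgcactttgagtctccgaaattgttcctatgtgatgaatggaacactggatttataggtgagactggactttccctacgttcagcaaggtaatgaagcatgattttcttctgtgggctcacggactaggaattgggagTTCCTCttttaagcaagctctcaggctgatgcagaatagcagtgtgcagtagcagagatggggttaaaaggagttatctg
Adora2b: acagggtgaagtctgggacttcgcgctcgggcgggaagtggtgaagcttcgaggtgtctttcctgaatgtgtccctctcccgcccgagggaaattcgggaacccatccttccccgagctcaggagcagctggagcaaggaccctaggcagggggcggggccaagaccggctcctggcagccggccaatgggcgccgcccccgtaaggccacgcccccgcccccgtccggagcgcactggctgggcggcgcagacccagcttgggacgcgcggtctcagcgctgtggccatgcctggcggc
Nt5e: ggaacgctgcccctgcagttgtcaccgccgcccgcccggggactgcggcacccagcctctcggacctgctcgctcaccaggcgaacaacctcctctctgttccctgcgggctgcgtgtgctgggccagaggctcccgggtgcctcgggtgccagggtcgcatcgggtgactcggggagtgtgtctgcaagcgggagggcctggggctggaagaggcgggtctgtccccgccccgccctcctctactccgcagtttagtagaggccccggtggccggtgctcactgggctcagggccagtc
Ada: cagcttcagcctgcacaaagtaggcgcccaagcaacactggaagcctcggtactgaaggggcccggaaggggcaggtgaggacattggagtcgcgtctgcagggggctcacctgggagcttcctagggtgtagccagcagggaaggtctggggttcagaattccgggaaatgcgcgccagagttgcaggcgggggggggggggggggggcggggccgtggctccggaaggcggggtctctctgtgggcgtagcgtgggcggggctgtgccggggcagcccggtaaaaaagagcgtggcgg
Windows were held for 8 of the 10 genes, 13 in all because some genes have several starts. The GAGGAA letters occurred on either strand in windows of 3 of these 8 genes (*Entpd1*, *P2rx7* and *P2ry14*). Counted by window they were in 7 of 13, of which 4 belong to *P2ry14* and 2 of those overlap and hold the same match, and in 28.3% of all 32817 promoter windows of this length. The first *Entpd1* window has 0 matches, in the second they begin at positions -235 and -227 from the start, and in the *P2ry14* window printed at -30. The ACGTG letters occurred in the window of *P2ry12* alone, where both strands read 1 CACGTG, and in 19.6% of all windows. These matches are descriptions of the sequence and not evidence of binding.

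Both receptors through which adenosine raises cyclic AMP were higher in the KO-labelled libraries, and both were scarce in the WT-labelled ones. *Adora2a* (ENSMUSG00000020178, chr10:75316877-75334784), the adenosine receptor of high affinity, had 54, 28, 138 and 75 counts in M7 to M10, or 1.97, 1.14, 6.69 and 4.08 CPM. The genotypes did not overlap. The log2 fold change was 1.79 (standard error 0.495, edgeR adjusted p = 0.0305), and the call was lost without M7 (edgeR adjusted p = 0.0829), without M8 (0.244) and with library size only (1.27, edgeR adjusted p = 0.0915), and the macrophage marker scaling gave -0.92 (edgeR adjusted p = 0.291). *Adora2b* (ENSMUSG00000018500, chr11:62248984-62266453), the receptor that needs more adenosine to respond, had 30, 24, 240 and 116 counts, or 1.09, 0.976, 11.6 and 6.31 CPM. M9 and M10 were well apart from each other and from M7 and M8. Its mean rose from 1.03 ± 0.0827 to 8.98 ± 3.77 CPM (SD, n = 2), an 8.64-fold difference (log2 fold change 3.11, standard error 0.453, edgeR adjusted p = 0.00396) that was 2.52 on the log2 scale without M9, and under the macrophage marker scaling the log2 fold change was 0.34 (edgeR adjusted p = 0.701).

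The P2X channels open on binding ATP. *P2rx4* (ENSMUSG00000029470, chr5:122707544-122729738), found on lysosomes and the surface of macrophages, had 575 and 623 counts in M7 and M8 and 2024 and 1438 in M9 and M10, or 20.9, 25.3, 98.2 and 78.3 CPM. Libraries of one genotype lay close together. The log2 fold change was 1.93 (standard error 0.194, edgeR adjusted p = 0.00139), and -0.84 under the macrophage marker scaling (edgeR adjusted p = 0.103). *P2rx7* (ENSMUSG00000029468, chr5:122643911-122691432), whose channel leads to NLRP3 inflammasome activation, had 621, 429, 1296 and 566 counts, or 22.6, 17.4, 62.9 and 30.8 CPM. M9 was high and M10 lay nearer to M7. The log2 fold change was 1.23 (standard error 0.346, edgeR adjusted p = 0.0325), and 0.53 without M9. The call was lost without M8 (1.04) and with library size only (0.71, edgeR adjusted p = 0.180). Under the macrophage marker scaling *P2rx7* was lower (-1.55, edgeR adjusted p = 0.00323), where the median of all genes tested was -2.69 and 86.4% were lower.

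*P2rx7* and *P2rx4* are neighbours on chromosome 5 with 16111 bases between them, on the same strand. There were 1.08 and 0.689 *P2rx7* counts for each *P2rx4* count in M7 and M8, and 0.640 and 0.394 in M9 and M10. The log2 difference was -0.78, and -0.46 without M7 and -0.43 without M10, and M8 and M9 were close to each other (exact two-sided permutation p = 0.333, the smallest possible).

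All 3 P2Y receptor genes were higher, and under the macrophage marker scaling none of them passed. *P2ry6* encodes the UDP receptor of phagocytes (ENSMUSG00000048779, chr7:100937630-100974649) and had 465 and 260 counts in M7 and M8 and 2793 and 2011 in M9 and M10, or 16.9, 10.6, 135 and 109 CPM. The libraries of each genotype lay together and far from the other genotype. Its mean rose from 13.8 ± 4.50 to 122 ± 18.4 CPM (SD, n = 2), 8.89-fold (log2 fold change 3.15, standard error 0.270, edgeR adjusted p = 0.000910), and the macrophage marker scaling gave 0.47 (edgeR adjusted p = 0.363). *P2ry12* (ENSMUSG00000036353, chr3:59216272-59262871), the ADP receptor of platelets and microglia, had 180, 141, 754 and 321 counts, or 6.56, 5.73, 36.6 and 17.5 CPM. M9 was the highest, M10 lay between it and the WT-labelled libraries, and the genotypes did not overlap. The log2 fold change was 2.14 (standard error 0.375, edgeR adjusted p = 0.00710), 1.42 without M9, and -0.66 under the macrophage marker scaling (edgeR adjusted p = 0.268). *P2ry14* (ENSMUSG00000036381, chr3:59113855-59153618), which responds to UDP-glucose, had 57, 31, 320 and 229 counts, or 2.08, 1.26, 15.5 and 12.5 CPM. Both KO-labelled libraries were far above the others. The log2 fold change was 3.06 (standard error 0.367, edgeR adjusted p = 0.00216), and 0.39 under the macrophage marker scaling (edgeR adjusted p = 0.615). *P2ry12* counts for each *P2ry6* count were 0.387 and 0.542 in M7 and M8 and 0.270 and 0.160 in M9 and M10, a log2 difference of -1.14 (exact two-sided permutation p = 0.333, the smallest possible) that was between -1.52 and -0.76 with each library left out.

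**Figure D2:**
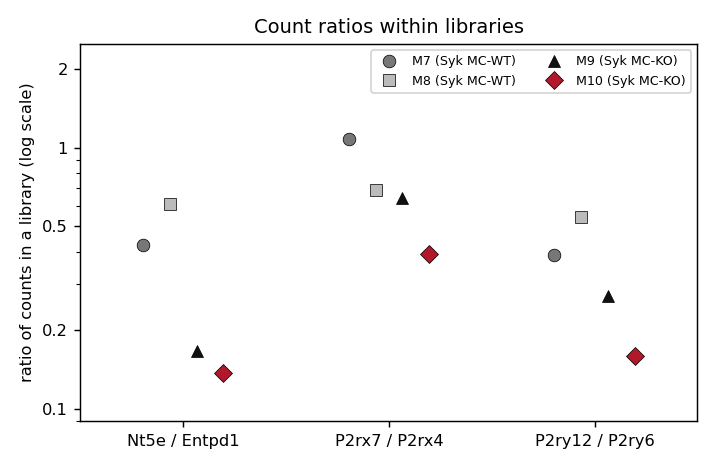
Ratio of the counts of 2 genes within each library, on a log scale, with 1 point per library. For each pair of genes M9 and M10 lie below M7 and M8; M8 and M9 are closest for P2rx7 to P2rx4, at 0.689 and 0.640.

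*P2ry12* and *P2ry14* lie in 1 cluster of receptor genes on the minus strand of chromosome 3, inside the span of *Med12l* on the plus strand. *P2ry13*, an ADP receptor between them, lies 5389 bases from *P2ry12* and 54273 bases from *P2ry14*, and *Gpr171* lies 12033 bases beyond *P2ry14*. *P2ry13* had 101, 56, 469 and 364 counts (log2 fold change 2.83, edgeR adjusted p = 0.00176) and *Gpr171*, a receptor of T cells and myeloid cells, had 37, 21, 290 and 267 (3.69, edgeR adjusted p = 0.00125). The host gene *Med12l* had 40, 44, 28 and 50 counts, with overlapping genotypes (0.33, 95% interval -1.03 to 1.68, edgeR adjusted p = 0.674). Annotated exons of *Med12l* share 9 bases with those of *P2ry12* and 0 with those of *P2ry14*. Under the macrophage marker scaling the log2 fold changes of *P2ry13* and *Gpr171* were 0.17 and 1.05, and neither passed.

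**Figure D3:**
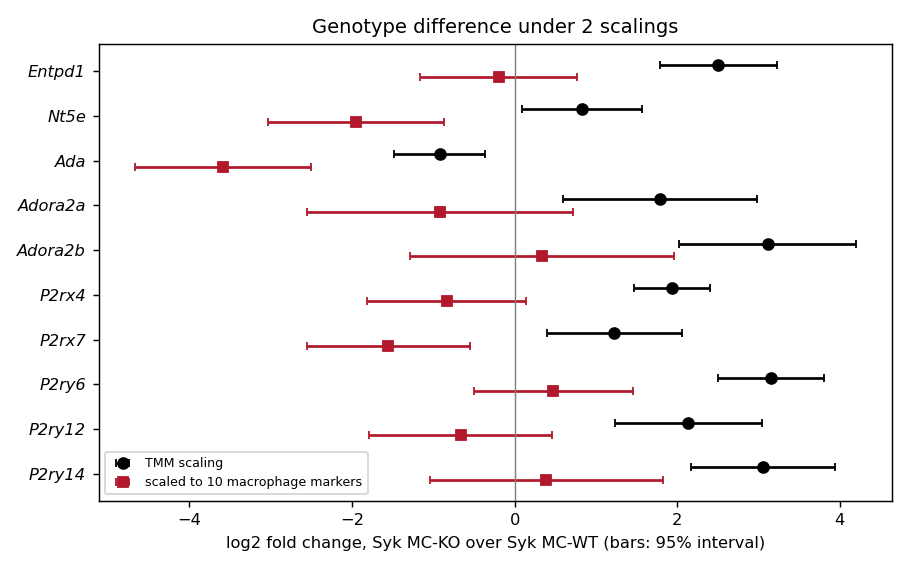
Log2 fold change of each of the 10 genes between libraries labelled Syk MC-KO and Syk MC-WT, with 95% intervals, under TMM scaling (black circles) and with libraries scaled to 10 macrophage markers (red squares). Under TMM scaling 9 genes lie above 0 and Ada below; under the marker scaling Adora2b, P2ry6 and P2ry14 lie above 0 and the other 7 below, with intervals that exclude 0 for Nt5e, Ada and P2rx7.

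Per kilobase of annotated exon, which allows levels to be compared between genes, *Ada* was the most abundant of the 10 in the WT-labelled libraries, at 29.4 ± 8.68 CPM per kilobase (SD, n = 2). *P2ry6* (4.76 ± 1.56), *Entpd1* (4.27 ± 1.42), *P2rx7* (3.35 ± 0.613) and *P2rx4* (3.29 ± 0.441) followed, and neighbours in this order were within their SDs of each other. *P2ry12* (2.41), *Nt5e* (1.37), *Adora2b* (0.560), *Adora2a* (0.507) and *P2ry14* (0.151) were lower, of which *Adora2b* and *Adora2a* were within their SDs. In the KO-labelled libraries the order began with *P2ry6* at 42.4 ± 6.37 and *Entpd1* at 24.3 ± 6.47 CPM per kilobase, and *Ada* followed at 15.5 ± 1.16. From *Ada* down, through *P2rx4*, *P2ry12*, *P2rx7*, *Adora2b*, *Nt5e* and *Adora2a* to *P2ry14* at 1.27 ± 0.195, no gene differed from the next by more than their SDs. The summed exon length of *P2ry14*, 11059 bases, joins exons of many transcripts and lowers its value.

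By the root mean square difference of log2 CPM, centred for each gene over the 4 libraries, the most alike of the 45 pairs were *Entpd1* and *P2ry14* (0.163), *P2ry6* and *P2ry14* (0.193) and *Nt5e* and *P2rx7* (0.218). In the last pair M9 was the highest library for both genes and M10 lay nearer to M7 than to M9. With 4 libraries this is a description of the profiles.

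The rest of the pathway, a list of 27 other genes, was read in the same fit. Of these, 23 were tested, 14 were higher and 1 lower in the KO-labelled libraries, and 8 did not pass, with a median log2 fold change of 1.32, where 22.7% of all genes tested were higher and 16.7% lower. With libraries scaled to the macrophage markers 0 were higher and 12 lower, beside 0.894% and 86.4% of all genes tested. Among 8 genes tested that hydrolyse extracellular nucleotides or NAD, 6 were higher (22.7% of all genes tested). The ecto-enzymes *Bst1* and *Cd38*, which consume NAD and are neighbours on chromosome 5, had log2 fold changes of 3.72 (edgeR adjusted p = 0.000824) and 2.84 (0.00124), with 160, 106, 1673 and 961 counts for *Bst1* and 407, 278, 2357 and 1350 for *Cd38*. The exons of *Bst1* share 98 bases with *Fbxl5* on the opposite strand. *Enpp1*, which makes AMP and pyrophosphate from ATP, was higher by 2.41 on the log2 scale, *Entpd3*, a relative of CD39, by 1.99, and the phosphatases *Acp3* and *Alpl*, which like CD73 can release adenosine from AMP, by 2.43 and 1.44. Under the macrophage marker scaling *Alpl* was lower (-1.37, edgeR adjusted p = 0.0429). *Enpp3* (-0.00, 95% interval -1.41 to 1.40) and *Entpd2* (0.63, 95% interval -1.25 to 2.52) did not pass, and *Entpd8* had 1 count in all. The exons of *Entpd2* share 612 bases, 28.8% of their length, with *Npdc1* on the same strand, which had 808 to 3291 counts against 10 to 33 for *Entpd2*.

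Of 6 genes of adenosine handling, 4 were higher (22.7% of all genes tested). *Dpp4*, which encodes the surface protein CD26, had 44 and 17 counts in M7 and M8 and 163 and 119 in M9 and M10 (log2 fold change 2.64, edgeR adjusted p = 0.00978). The nucleoside transporters *Slc28a2* and *Slc29a1* were higher by 2.33 and 1.08, and *Pnp*, which breaks down the inosine that adenosine deaminase makes, by 1.32. The exons of *Pnp* share 718 bases with *Gm49342* on the same strand, so that reads could be divided between them. *Adk*, the kinase that returns adenosine to AMP inside cells (0.34, 95% interval -0.20 to 0.88), and the transporter *Slc29a2* (0.25, 95% interval -0.55 to 1.04) did not pass. Of these genes *Pnp*, *Slc29a1*, *Adk* and *Slc29a2* were lower under the macrophage marker scaling. So were 86.4% of all genes tested, whose median log2 fold change was then -2.69.

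The A3 receptor gene *Adora3* had 2 and 3 counts in M7 and M8 and 84 and 43 in M9 and M10 (edgeR adjusted p = 0.00391). Summed over the libraries of a genotype, the ratio per normalized total was 33.9, with a 95% counting interval of 14.2 to 106. Its exons share 779 bases with *Tmigd3* on the same strand, which had at most 3 counts. *Adora1*, the A1 receptor gene, had 4 counts in all and was not tested. *P2ry1*, an ADP receptor gene, had 0 and 4 counts in M7 and M8 and 34 and 37 in M9 and M10, a ratio of 23.7 (95% counting interval 8.86 to 89.4, edgeR adjusted p = 0.0223). Both counting intervals leave out the spread between libraries. The edgeR log2 fold changes were 4.98 (95% interval 3.24 to 6.72) for *Adora3* and 4.45 (95% interval 1.77 to 7.13) for *P2ry1*. *P2ry2*, 21918 bases from *P2ry6*, had 219, 125, 396 and 160 counts and did not pass (1.10, 95% interval 0.04 to 2.15, edgeR adjusted p = 0.0910), and *P2ry4* had 0 counts in every library. *Panx1*, a channel through which cells release ATP, was higher by 0.79 (edgeR adjusted p = 0.0283). Under the macrophage marker scaling *Panx1* was lower (-1.91), where the median of all genes tested was -2.69 and 86.4% were lower.

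The 4 other P2X genes tested had log2 fold changes below 0 under TMM and under both marker scalings, whereas those of *P2rx4* and *P2rx7* were above 0 under TMM and below it under both marker scalings. *P2rx3*, known from sensory neurons, had 101 and 92 counts in M7 and M8 and 17 and 27 in M9 and M10, a log2 fold change of -1.69 (edgeR adjusted p = 0.0385), and the call was lost without M7 and without M8. Its exons share 51 bases with *Ssrp1* on the opposite strand, which had 4331 to 5419 counts, and whether the reads were stranded is not given in the sources used here. *P2rx1* (28, 40, 6 and 16 counts, -1.19), *P2rx5* (53, 65, 35 and 4, -1.24) and *P2rx6* (132, 126, 25 and 69, -1.003) had CPM below both WT-labelled libraries in M9 and M10 and did not pass. *P2rx2* had 1, 0, 5 and 4 counts and was not tested. That 4 of 4 P2X genes tested here had lower CPM stands beside the 37.2% of all genes tested that did.

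**Figure D4:**
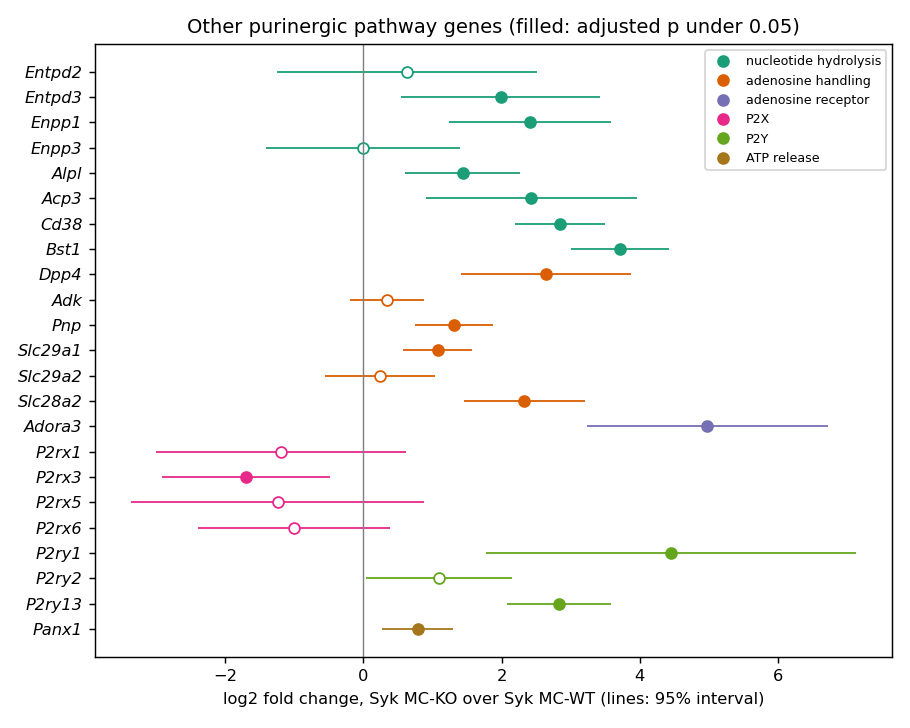
Log2 fold change with 95% interval for the 23 other pathway genes tested, coloured by role, under TMM scaling. Filled points passed an adjusted p of 0.05: 14 lie above 0 and P2rx3, whose call was lost without M7 and without M8, below; with libraries scaled to macrophage markers 0 were higher and 12 lower.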

How the data were processed

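Gene expression in cells isolated on beads as TAMs was read in 4 RNA-seq libraries, grouped by the genotype in their labels. The deposited table held raw counts, as whole numbers, for each Ensembl gene. To make it the authors aligned reads with STAR (mm10) and ran Salmon within bcbio (the submitters' processing notes name STAR 2.6.1d and Salmon 1.4.0). How whole numbers were made from Salmon's estimates, and whether reads were stranded, is not given in the sources used here.

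Symbols, positions and exon lengths came from GENCODE M21 on GRCm38, which matched 54495 of 54532 genes, and promoters from RefSeq. Genes passed edgeR's filterByExpr, and genotypes were compared in R 4.3.3 with edgeR 4.0.16 (TMM, glmQLFit and glmQLFTest) without covariates, since the labels give no batch or pairing. Values are TMM-normalized CPM. TMM factors were 1.22, 1.19, 0.877 and 0.787 for M7 to M10. Within a genotype the libraries differed beyond sampling noise (chi-square per degree of freedom 50.6 and 168). The script was tested on simulated data that held no shift in cell composition, so that test does not bear on the choice of scaling. Every one of the 10 genes is named, as is each other pathway gene that passed or was not detected, and the 3 most alike pairs.

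The genes, lists and alternatives were chosen with earlier results of these data known. Alternatives were other scalings, DESeq2 1.42.0, robust edgeR, other filters, and each library left out. Some listed genes are not reported here.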

Additional observations from a re-analysis of the deposited data

How the results depend on the processing

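No paired analysis was possible because the library numbers in the labels are shared by no 2 samples. The calls of the 10 genes (8 higher, 1 lower) were the same in number with DESeq2 size factors, without mitochondrial and rRNA-like genes, with at least 10 counts in every library, with robust edgeR and with DESeq2's Wald test. With 2 libraries per genotype and 1 left out, the lone library is assumed to vary like the others. The cause of the changes below was not tested.

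With library size only, 1678 genes were higher and 5407 lower, as were 9 other pathway genes higher, and log2 fold changes were 1.27 for *Adora2a* and 0.71 for *P2rx7*. Scaled to the macrophage markers, 147 genes were higher and 14220 lower, of the 10 genes 0 and 3, and of the other pathway genes 0 and 12. The log2 fold changes were then -0.20 (*Entpd1*), -1.95 (*Nt5e*), -0.92 (*Adora2a*), 0.34 (*Adora2b*), -0.84 (*P2rx4*), -1.55 (*P2rx7*), 0.47 (*P2ry6*), -0.66 (*P2ry12*), 0.39 (*P2ry14*) and 0.087 (*Syk*). Scaled to the pan-leukocyte genes, the counts were 91 and 14922, 0 and 7, and 0 and 14, and the log2 fold changes were -0.73, -2.45, -1.45, -0.17, -1.34, -2.06, -0.067, -1.16, -0.15 and -0.44 in the same order. With every gene that had at least 1 count, *Nt5e* passed (0.81, edgeR adjusted p = 0.0107).

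With each library left out, 1478 to 5010 genes were higher and 807 to 4745 lower, 6 to 9 and 0 to 1 of the 10 genes, and 7 to 15 and 0 to 3 of the other pathway genes. The lowest count of genes higher came without M8, and the call of *Ada* was lost without M7 and that of *P2rx3* without M7 and without M8. Log2 fold changes were 0.27 to 1.19 for *Nt5e*, -1.20 to -0.58 for *Ada*, 1.30 to 2.24 for *Adora2a*, 0.53 to 1.66 for *P2rx7* and 1.42 to 2.58 for *P2ry12*, and the log2 difference of the *P2rx7* to *P2rx4* ratio was -1.13 to -0.43.

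Medians of the marker lists moved as follows, in the order macrophage, pan-leukocyte, fibroblast, endothelial, neutrophil, T cell, B cell, dendritic cell and neuroblastoma. Scaled to the macrophage markers they were 0.090, 0.78, -3.75, -3.29, 0.24, 0.42, -1.33, 0.69 and -1.45, and scaled to the pan-leukocyte genes -0.43, 0.26, -4.28, -3.80, -0.22, -0.13, -1.93, 0.16 and -1.98. With each library left out they ranged from 2.37 to 3.20, 3.07 to 3.79, -1.22 to -0.85, -0.86 to -0.55, 2.29 to 3.65, 2.48 to 3.49, 0.96 to 1.71, 3.22 to 3.51 and 0.56 to 1.69. With library size only the lists other than neutrophil were at 2.29, 2.99, -1.59, -1.08, 2.47, 0.60, 2.86 and 0.74. The endothelial median was -0.59 with DESeq2 size factors, -0.64 without mitochondrial and rRNA-like genes, -0.63 with at least 10 counts and -0.60 with DESeq2's Wald test. With at least 10 counts the T cell, dendritic cell and neuroblastoma medians were 2.62, 1.53 and -0.34. The B cell and neuroblastoma medians were 2.59 and -0.29 with every gene counted and 2.57 and -0.34 with DESeq2's Wald test.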
